A study of Mus musculus with 6 samples.

Results

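The baseline transcriptome of granulosa cells (GCs) primed with PMSG was described from the 3 samples given PBS, out of 6 samples in the series. The samples were chosen by the treatment in their labels, PBS, and all 3 of them were used. The donors were female ICR mice aged 3 weeks and primed with 5 IU of PMSG, a gonadotropin that acts on the FSH receptor and drives the growth of antral follicles. PBS was injected 22 h after PMSG, and GCs were collected 6 h after PBS. Each sample held the GCs of 3 mice, so it is a pool and not a single animal. ICR is an outbred stock, and the labels name no hCG treatment of these mice. The other 3 samples of the series came from mice given cyclophosphamide in place of PBS, and they were not compared here.

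GCs line the ovarian follicle, surround the oocyte and are coupled to it and to each other by gap junctions. Under FSH they divide, convert androgens made by the neighbouring theca cells into oestradiol, and secrete inhibins and activins, which act on the pituitary and within the follicle. Mural GCs lie against the follicle wall and acquire the LH receptor late in follicle growth. Cumulus GCs stay with the oocyte and respond to the factors that it secretes.

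Expression was measured by RNA-seq of total RNA and was deposited as FPKM, a count of fragments divided by gene length and by library size, for 54532 genes. A level below is the mean FPKM ± SD of the 3 samples (n = 3), and a rank is the place of that mean among all genes of the table, counted from 1 for the highest. The reads behind the values came to 17637451, 17790353 and 16005869 in PBS replicates 1, 2 and 3, and 3 reads on a gene of 1 kb were worth 0.164 to 0.185 FPKM. No hypothesis was tested, because the 3 samples form 1 group, and the spread between them is given beside each level. In bulk RNA, fewer cells of a type and less RNA per cell cannot be told apart. The order of genes by FPKM also depends on the deposited gene lengths.

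The cells carried the markers of their label at high levels. All 18 genes of a granulosa identity list were at or above 1 FPKM, and their summed FPKM was 14569, 14405 and 15768 in replicates 1, 2 and 3. That sum was 4.69% ± 0.0940 of all FPKM. Of 5 markers in common use for these cells, *Inha* was the most abundant gene of the whole table, *Foxl2* had rank 196, *Fshr* rank 497, *Cyp19a1* rank 818 and *Amh* rank 1046. *Wt1*, a transcription factor of the early gonad, and *Kitl*, which encodes the ligand of the KIT receptor on oocytes, were the lowest of the list, at 2.99 ± 0.0993 and 1.60 ± 0.124 FPKM. The 4 mural markers *Cyp11a1*, *Nppc*, *Lhcgr* and *Vcan* lay between 50.0 and 554 FPKM. All 6 cumulus markers reached 5 FPKM, with *Ldhb* the highest at 90.2 FPKM, so genes of both positions in the follicle were present.

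A mean of at least 1 FPKM was reached by 12661 genes, 23.2% of the table. They included 11020 of the 22046 protein-coding genes. Above 10 FPKM there were 5247 genes, above 100 FPKM 454, and above 1000 FPKM 14. No read fell on 28147 genes in any of the 3 samples. The transcriptome was concentrated in few genes, since 514 genes held 50% of the summed FPKM. *Inha* alone held 2.94%, 2.95% and 3.17% of the FPKM in replicates 1, 2 and 3. The 10 most abundant genes held 14.0% ± 0.250, the 100 most abundant 30.02% ± 0.523 and the 1000 most abundant 60.1% ± 0.855. Counted in reads, where long genes weigh more, 1062 genes held 50% of the total.

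**Figure D1:**
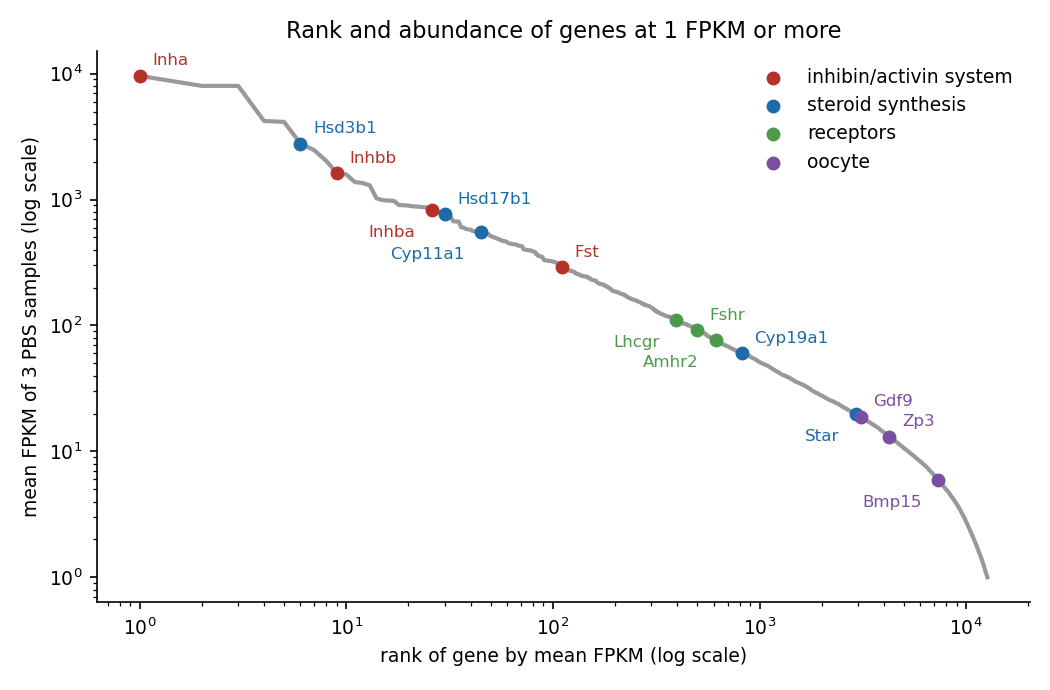
Mean FPKM of the 3 PBS samples (vertical, log scale) against the rank of the gene (horizontal, log scale) for the 12661 genes at or above 1 FPKM, drawn as a grey line with named genes as coloured points. *Inha* stands at rank 1 and *Hsd3b1* at rank 6, the receptors *Lhcgr*, *Fshr* and *Amhr2* lie at ranks 394 to 613, and the oocyte genes *Gdf9*, *Zp3* and *Bmp15* lie at ranks 3089 to 7340.

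The 100 most abundant genes comprised 93 protein-coding genes, of which 33 encode cytosolic ribosomal proteins and 7 lie on the mitochondrial genome. A further 6 were annotated as pseudogenes. Among the 100, 5 belonged to the granulosa identity list (*Inha*, *Inhbb*, *Inhba*, *Hsd17b1* and *Gja1*) and 3 were transcription factor genes. Behind *Inha*, the mitochondrial genes *mt-Co1* (7995 ± 647 FPKM), *mt-Cytb* (4208 ± 302 FPKM) and *mt-Nd1* (4137 ± 226 FPKM) led the protein-coding genes, and they encode subunits of the respiratory chain. *Hsd3b1*, a steroid dehydrogenase, came next at 2785 ± 192 FPKM. It was followed by the elongation factor gene *Eef1a1* at 2467 ± 140 FPKM and by *mt-Nd2* at 2028 ± 138 FPKM. Among the 20 most abundant protein-coding genes, neighbours in the order were separated in 7 of 19 pairs, in that the lowest sample of one lay above the highest sample of the next. The ranges of the other 12 pairs overlapped, among them *Inhbb* and *Rplp1*, *Ptma* and *Hsp90ab1*, and *Eef2* and *Rps15*.

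Protein-coding genes held 89.5% ± 0.366 of the FPKM and 97.7% ± 0.0428 of the reads. The gap between the shares came with short genes of other biotypes, because a read on a short gene is worth more FPKM. Genes under 200 bases held 3.55% ± 0.149 of the FPKM and 0.0803% ± 0.00379 of the reads. Most of the first share lay in *Gm23935*, a 57-base gene annotated as a miRNA (chromosome 16, 11144125 to 11144181), which had rank 3 at 7715, 7264 and 9003 FPKM from 7837, 7591 and 8312 reads. Processed pseudogenes held 5.39% ± 0.295 of the FPKM and 1.08% ± 0.0706 of the reads, and 633 of them reached 1 FPKM. The other 4 leading genes of other biotypes were processed pseudogenes, *Rpl34-ps1* (1023 ± 132 FPKM), *Gm15772* (989 ± 95.9 FPKM), *Rpsa-ps10* (667 ± 53.4 FPKM) and *Gm13394* (583 ± 37.2 FPKM). The level of *Rpl34-ps1* stood beside 5.37 ± 0.593 FPKM for *Rpl34* itself, a gene named here after its values were seen. Reads from such near-identical copies could be placed on either gene, so both levels are uncertain.

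The 85 cytosolic ribosomal protein genes, of which 82 were at or above 1 FPKM, held 7.90% ± 0.587 of the FPKM. The 13 protein-coding genes of the mitochondrial genome held 7.02%, 7.84% and 6.52% in replicates 1, 2 and 3. They were very unequal. *mt-Co2*, named after its values were seen, was listed at 74.7, 167 and 82.6 FPKM, and *mt-Co3* at 35.5 ± 0.570 FPKM, against the 7995 FPKM of *mt-Co1*. Nuclear copies of this genome, such as *Gm28661* (66.7 ± 6.35 FPKM) and *Gm10925* (47.1 ± 4.57 FPKM), had reads as well. Levels of genes with such copies are uncertain for the same reason as above, and the part of shared reads in these low values was not tested.

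Among 9680 genes of long non-coding biotypes, 532 reached 1 FPKM. The most abundant of them, named after its values were seen, was *Foxl2os* (chromosome 9, 98949781 to 98955299), the antisense neighbour of *Foxl2*, at 130, 151 and 121 FPKM. *Foxl2os* is annotated on the other strand and overlaps *Foxl2* (98955288 to 98958543) by a few bases at their 5′ ends. Whether strand was used in counting is not given in the sources used here, so reads at the overlap could belong to either. *Malat1* was at 62.1 ± 10.8 FPKM and *Xist* at 25.002 ± 4.45 FPKM. No read fell on the Y-linked genes *Kdm5d*, *Ddx3y*, *Uty* and *Eif2s3y*. Of the 1570 genes annotated to chromosome Y, 2 did reach 1 FPKM, and the chromosome held 0.0320% ± 0.00138 of the FPKM.

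The inhibin and activin subunits were the dominant hormone transcripts. Inhibins pair the α subunit, encoded by *Inha*, with a β subunit encoded by *Inhba* or *Inhbb*, whereas activins pair β subunits alone. *Inha* (chromosome 1, 75507077 to 75510366) was at 9205, 9212 and 10402 FPKM in replicates 1, 2 and 3. *Inhbb* (chromosome 1, 119415465 to 119422248) was at 1629, 1583 and 1658 FPKM, and *Inhba* (chromosome 13, 16011851 to 16031621) at 902, 822 and 754 FPKM. The 3 genes did not overlap in level in any sample, and together they held 3.79% ± 0.0934 of the FPKM and 2.68% ± 0.0634 of the reads. On the FPKM scale *Inha* was 5.91 ± 0.323 times *Inhbb* and 11.7 ± 1.86 times *Inhba*, and *Inhbb* was 1.98 ± 0.202 times *Inhba*. *Fst*, which encodes the activin-binding protein follistatin, was at 287, 281 and 303 FPKM, and *Inhba* was 2.85 ± 0.332 times *Fst*.

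Other signals that GCs send followed at lower levels. *Nppc*, which encodes the C-type natriuretic peptide that holds the oocyte in meiotic arrest, was at 166, 176 and 195 FPKM, and its receptor gene *Npr2* at 71.8 ± 1.31 FPKM. *Gas6*, a ligand of receptor tyrosine kinases, was at 122 ± 4.31 FPKM. The hedgehog ligands *Ihh* and *Dhh*, which signal to theca cells, were at 107 ± 5.90 and 11.1 ± 0.523 FPKM, a ratio of 9.66 ± 0.175 in favour of *Ihh*. *Amh*, which encodes anti-Mullerian hormone, was at 48.4, 48.8 and 51.1 FPKM, below its receptor gene *Amhr2* at 75.7, 73.6 and 79.9 FPKM in each sample. *Igf1* was at 29.97 ± 1.52 FPKM, whereas no read fell on *Igf2* in any sample, which allows up to 0.0324 FPKM at a floor of 3 reads per library. Of the 36 genes on the list of peptide hormones and secreted signals, 27 reached 1 FPKM and 21 reached 5 FPKM. Hormones made by hypothalamus, pituitary, pancreas, fat or placenta served as a contrast. Of these 11 genes, 6 (*Cga*, *Fshb*, *Prl*, *Gh*, *Ins2* and *Lep*) had no read in any sample, and 2 passed 1 FPKM, *Gnrh1* at 3.61 ± 0.716 and *Pomc* at 1.25 ± 0.492 FPKM.

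**Figure D2:**
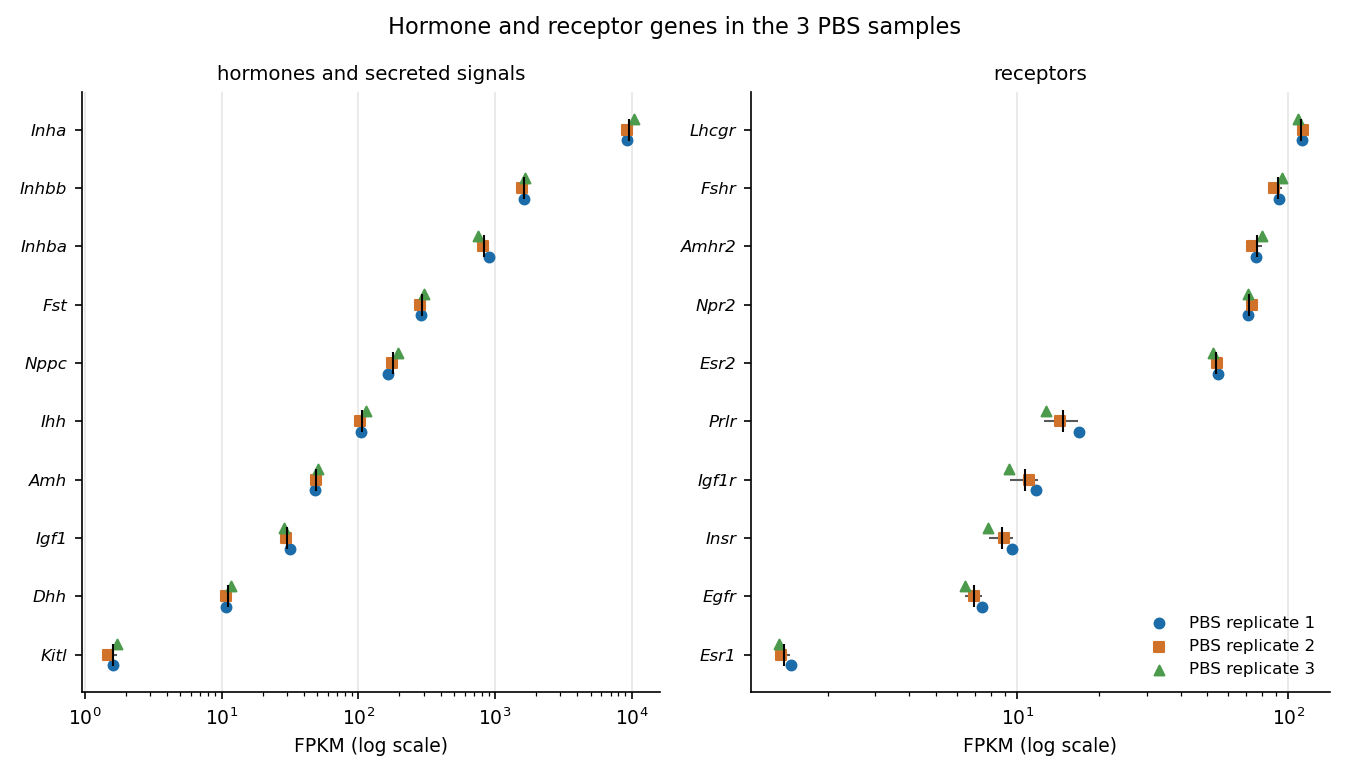
FPKM (horizontal, log scale) of 10 hormone or signal genes (left) and 10 receptor genes (right) in the 3 PBS samples. Symbols are samples, vertical ticks are means and horizontal lines are ± 1 SD. From *Inha* at 9606 FPKM to *Kitl* at 1.60 FPKM the spread between samples is small beside the steps between most genes, and *Prlr*, *Igf1r* and *Insr* show their highest level in replicate 1 and their lowest in replicate 3.

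The sequences just upstream of 5 genes are shown, since these genes carry the hormone, steroid and early response programmes described here. Each is the 100 bases before the start site in RefSeq (GRCm38.p6), written 5′ to 3′ on the strand of the gene. Capitals mark TATAAA beginning from -40 to -20 on the strand of the gene, and CCAAT on either strand (ATTGG on the other). Positions count back from the start site, and the windows are *Inhbb* chr1:119422249-119422348 (minus), *Inhba* chr13:16011751-16011850 (plus), *Hsd3b1* chr3:98859795-98859894 (minus), *Nppc* chr1:86670574-86670673 (minus) and *Fos* chr12:85473790-85473889 (plus).
Inhbb: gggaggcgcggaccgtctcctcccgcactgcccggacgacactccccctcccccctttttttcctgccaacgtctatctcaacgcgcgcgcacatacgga
Inhba: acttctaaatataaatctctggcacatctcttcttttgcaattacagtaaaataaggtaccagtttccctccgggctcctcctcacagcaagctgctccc
Hsd3b1: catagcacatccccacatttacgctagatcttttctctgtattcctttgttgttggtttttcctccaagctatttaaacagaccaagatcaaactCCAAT
Nppc: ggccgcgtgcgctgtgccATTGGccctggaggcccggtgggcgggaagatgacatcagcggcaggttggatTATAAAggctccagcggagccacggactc
Fos: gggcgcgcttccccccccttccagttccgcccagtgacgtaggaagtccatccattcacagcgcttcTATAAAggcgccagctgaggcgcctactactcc

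TATAAA began at -29 in *Nppc* and at -33 in *Fos*, and it was found in that interval in 1.99% of the 32851 promoter windows of the RefSeq table. CCAAT or ATTGG lay at -82 in *Nppc* and at -5 in *Hsd3b1*, and it was found in 33.8% of all windows over 250 bases. CAAGGTCA, a sequence that NR5A factors can bind, was searched on both strands over the same 250 bases. It was in none of the 5 promoters and in 1.33% of all windows. These matches describe letters in a window only.

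Steroid synthesis genes differed widely in level and did not follow the order of the steps. *Cyp11a1*, whose product cuts cholesterol to pregnenolone, was at 564, 544 and 553 FPKM. *Hsd3b1*, whose product turns pregnenolone into progesterone, was at 2699, 2651 and 3005 FPKM, or 5.03 ± 0.351 times *Cyp11a1*. *Hsd17b1*, whose product makes oestradiol from oestrone, was at 731, 753 and 819 FPKM. These 3 genes had non-overlapping levels. *Cyp19a1*, which encodes aromatase (chromosome 9, 54165937 to 54268110), was far lower at 60.0, 59.2 and 62.4 FPKM, so that *Hsd17b1* was 12.7 ± 0.474 times and *Hsd3b1* 46.0 ± 1.89 times *Cyp19a1*. *Star*, whose product brings cholesterol into mitochondria, was at 20.5, 20.02 and 18.96 FPKM, and *Cyp11a1* was 28.0 ± 1.08 times *Star*. The electron donors of CYP11A1 were better represented, with *Fdx1* at 177 ± 5.44 and *Fdxr* at 138 ± 2.81 FPKM. The lipoprotein receptor gene *Scarb1* was at 89.7 ± 3.86 FPKM.

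Of the 20 steroid synthesis genes, 17 were at or above 1 FPKM. The 3 others were *Hsd3b6*, *Srd5a2* and *Hsd17b3*, all below 0.1 FPKM. All 22 genes of cholesterol synthesis and its control were present, from 4.25 FPKM for *Fdps* to 49.0 FPKM for *Hmgcs1*, with a median of 27.7 FPKM. Their replicate CV (SD over mean) had a median of 3.83%, against 5.05% over all genes between 10 and 30 FPKM, the class that holds their median level.

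Gonadotropin receptors were both well expressed. *Lhcgr* (chromosome 17, 88741549 to 88791976), the receptor of LH, was at 112, 113 and 108 FPKM, above *Fshr* (chromosome 17, 88985170 to 89200612), the receptor of FSH, at 92.2, 88.5 and 94.5 FPKM. Their ratio was 1.21, 1.28 and 1.15 in replicates 1, 2 and 3, so *Lhcgr* was the higher of the pair in each sample. They headed the list of 35 hormone and growth factor receptors, of which 22 reached 1 FPKM. *Pgrmc1* (90.2 ± 2.59 FPKM) overlapped *Fshr*, and *Npr2* followed. *Prlr*, *Igf1r*, *Insr* and *Egfr* lay between 6.93 and 14.7 FPKM. Receptors of the thyroid-stimulating hormone and of GnRH, *Tshr* and *Gnrhr*, were at 0.0568 ± 0.0236 and 0.00644 ± 0.0111 FPKM. In the TGF-β receptor family, *Amhr2* led, followed by *Tgfbr1* (47.5 ± 3.73 FPKM), *Bmpr2* (35.8 ± 3.56 FPKM) and *Bmpr1b* (30.9 ± 1.63 FPKM), and *Bmpr1b* was 1.99 ± 0.1001 times *Bmpr1a*. The activin receptors *Acvr2a* and *Acvr2b* were at 3.50 ± 0.814 and 2.49 ± 0.242 FPKM. The levels of *Acvr2a* and *Acvr2b* were thus low beside those of the activin subunits. *Acvr1b* and *Acvr1*, of the same family, had higher means than *Acvr2a* and *Acvr2b*.

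Nuclear receptors showed a marked order. *Nr5a2*, a regulator of ovulation and steroid synthesis, was at 243, 229 and 223 FPKM, and was 3.00 ± 0.231 times its relative *Nr5a1*. *Esr2*, the oestrogen receptor β of GCs, was at 54.8, 54.5 and 52.8 FPKM, whereas *Esr1* was at 1.47, 1.35 and 1.32 FPKM, a ratio of 39.2 ± 1.60. *Pparg* was at 48.6 ± 4.05 FPKM. *Pgr*, the progesterone receptor that LH induces, was at 0.112, 0.140 and 0.0433 FPKM from 17, 22 and 6 reads. Of the 31 nuclear hormone receptors listed, 23 reached 1 FPKM.

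Downstream of the FSH receptor, the cAMP pathway was dominated by *Prkar2b*, a regulatory subunit of protein kinase A, at 815, 779 and 795 FPKM (rank 28). It was 7.74 ± 0.171 times *Prkar1a* and 12.8 ± 0.584 times the catalytic subunit gene *Prkaca*. *Prkaca* in turn was 4.69 ± 0.398 times *Prkacb*. *Pde8a* (23.1 ± 0.391 FPKM) was the highest of the phosphodiesterase genes listed, and *Adcy9* (14.3 ± 2.36 FPKM) the highest of the adenylyl cyclase genes listed. *Gja1*, which encodes the main gap junction protein of GCs, was at 575, 543 and 566 FPKM. Basement membrane genes of the follicle wall were lower, with *Col4a1* at 112 ± 9.71 FPKM and *Lama1* at 43.4 ± 3.81 FPKM.

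The deposited table assigns 1469 genes to 67 transcription factor families. Of these, 769 (52.3%) were at or above 1 FPKM, against 49.8% of the other protein-coding genes, and 18 passed 100 FPKM. Together the 1469 genes held 3.37% ± 0.125 of the FPKM. *Ybx1*, a cold-shock domain protein that binds RNA and DNA, was the highest at 459, 463 and 484 FPKM. *Jun* (441, 441 and 431 FPKM), *Fos* (393, 390 and 368 FPKM) and *Egr1* (310, 317 and 277 FPKM) came next, all of them genes that cells switch on within minutes of a stimulus. These 4 genes were separated from each other, with no overlap between their samples. Of the 20 most abundant transcription factor genes, 6 belonged to an immediate-early list (*Jun*, *Fos*, *Egr1*, *Jund*, *Junb* and *Fosb*), and 7 belonged to the basic leucine zipper family.

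**Figure D3:**
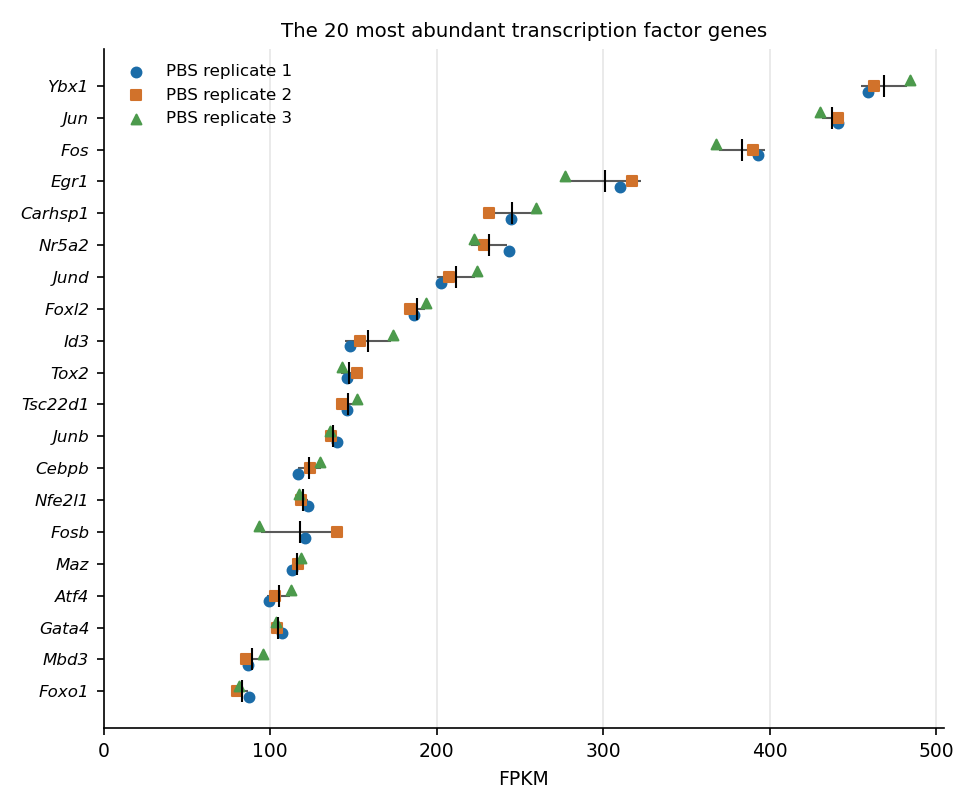
FPKM (horizontal, linear from 0) of the 20 transcription factor genes with the highest mean in the 3 PBS samples. Symbols are samples, vertical ticks are means and horizontal lines are ± 1 SD. *Ybx1*, *Jun*, *Fos* and *Egr1* stand apart from each other and from the rest, and *Fosb* has the widest range, from 93.1 FPKM in replicate 3 to 140 FPKM in replicate 2.

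All 24 immediate-early genes were at or above 1 FPKM, with a median of 38.8 FPKM and a summed level of 2301, 2337 and 2203 FPKM. They were not uniformly high. *Ier2* (285 ± 8.75 FPKM) and *Dusp1* (56.5 ± 3.92 FPKM) were abundant, but *Atf3* (2.92 ± 0.662 FPKM), *Egr3* (1.30 ± 0.409 FPKM) and *Fosl1* (1.26 ± 0.286 FPKM) were near the floor of the list. *Fos* was 266, 284 and 391 times *Fosl1* in the 3 samples.

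Among factors that establish or maintain GCs, *Nr5a2* and *Foxl2* led. *Foxl2*, which keeps the ovarian fate of these cells, was at 186, 184 and 193 FPKM. *Gata4* was at 105 ± 2.02 FPKM, or 2.60 ± 0.0777 times *Gata6*, and *Foxo1*, a target of insulin and FSH signalling, was at 82.9 ± 3.76 FPKM, or 6.90 ± 0.366 times *Foxo3*. *Cebpb* and *Cebpa*, which act in the response to LH, were at 124 ± 6.68 and 68.9 ± 2.54 FPKM. The testis factors *Sox9* and *Dmrt1* lay at the other end. *Sox9* was at 0.905 ± 0.109 FPKM and *Foxl2* was 209 ± 18.5 times *Sox9*, while no read fell on *Dmrt1*, which allows up to 0.0714 FPKM. Of the 28 gonad transcription factors listed, 24 reached 1 FPKM. By family, C2H2 zinc fingers held 22.1% of the transcription factor FPKM through 576 genes, of which 352 reached 1 FPKM. The 48 basic leucine zipper genes held 18.8%. Homeobox genes were mostly below 1 FPKM, with 35 of 232 at or above 1 FPKM.

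Genes of the dividing cell were widely expressed. Of 30 cell cycle genes, 28 reached 1 FPKM, led by *Cdk4* (115 ± 7.59 FPKM), *Ccnb2* (68.0 ± 2.70 FPKM) and *Pcna* (66.7 ± 3.57 FPKM). *Mki67*, a marker of dividing cells, was at 19.7 ± 1.87 FPKM. Among the D-type cyclins, *Ccnd2* was at 43.6, 41.9 and 40.6 FPKM, against 0.274, 0.371 and 0.328 FPKM for *Ccnd1* and 3.47, 3.11 and 3.53 FPKM for *Ccnd3*. *Ccnd2* is known as the D-type cyclin that FSH induces. Of the cyclin-dependent kinase inhibitors, *Cdkn1b* was at 35.1 ± 1.58 FPKM, *Cdkn1a* at 9.06 ± 0.319 FPKM and *Cdkn2a* at 0.179 ± 0.0180 FPKM.

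All 13 genes of the polycomb repressive complex 2 (PRC2), which writes H3K27me3, and of the demethylases that remove it were at or above 1 FPKM. *Ezh2* and *Ezh1*, the alternative catalytic subunits, were at 10.4, 11.1 and 12.2 FPKM and at 10.3, 10.6 and 9.79 FPKM. *Ezh2* was thus 1.10 ± 0.130 times *Ezh1*, and their ranges overlapped. *Suz12* was at 20.03 ± 1.24 and *Eed* at 10.2 ± 0.140 FPKM, whereas the histone-binding subunit gene *Rbbp7* was at 123 ± 2.25 FPKM, 4.62 ± 0.0568 times its relative *Rbbp4*. The demethylase genes *Kdm6b* and *Kdm6a* were at 15.7 ± 1.36 and 8.15 ± 0.459 FPKM. The summed level of the 13 genes was 272, 271 and 273 FPKM.

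Transcripts of other cell types were present at low levels, and 112 markers of 13 such lists summed to 623, 808 and 831 FPKM, or 0.237% ± 0.0328 of all FPKM. Erythroid genes made up most of this. The haemoglobin genes *Hba-a1* (200, 286 and 291 FPKM), *Hbb-bs* (92.6, 120 and 131 FPKM) and *Hbb-bt* (19.3, 22.3 and 24.5 FPKM) were lowest in replicate 1. *Hba-a2*, the other haemoglobin gene of the list, was below 1 FPKM. How reads were shared between *Hba-a1* and *Hba-a2* was not tested, so both levels are uncertain. The erythroid membrane gene *Slc4a1* was at 0.0654 ± 0.0239 FPKM. *Alas2*, the erythroid enzyme of haem synthesis, was at 7.12, 6.88 and 7.71 FPKM and did not follow the haemoglobin genes, since it was lowest in replicate 2.

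The 18 genes of the oocyte list summed to 59.7, 129 and 124 FPKM in replicates 1, 2 and 3. *Gdf9*, a growth factor that oocytes secrete, was at 11.7, 23.7 and 21.1 FPKM from 425, 882 and 695 reads. *H1foo*, the oocyte linker histone, was at 8.60, 18.6 and 18.7 FPKM, and the zona pellucida genes *Zp3* and *Zp2* were at 8.06, 16.7 and 14.6 FPKM and at 3.85, 8.11 and 8.77 FPKM. Replicate 1 was the lowest sample for each of these genes, and the other 2 lay close together. All 14 members at or above 1 FPKM were lowest in replicate 1 and had a highest sample more than 1.5-fold above the lowest. The same range, with replicate 1 the lowest, was seen in 3.55% of the 12661 genes at or above 1 FPKM. Replicate 2 over replicate 1 ranged from 1.61 to 2.80 among the 14 genes, with a median of 2.14, where the median over all genes was 0.983. Between replicates 2 and 3, 0 of the 14 differed by more than 1.5-fold, against 4.66% of all genes, so a count of 0 is near the share of all genes. *Figla*, *Sohlh1*, *Ddx4* and *Kit* were below 1 FPKM.

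**Figure D4:**
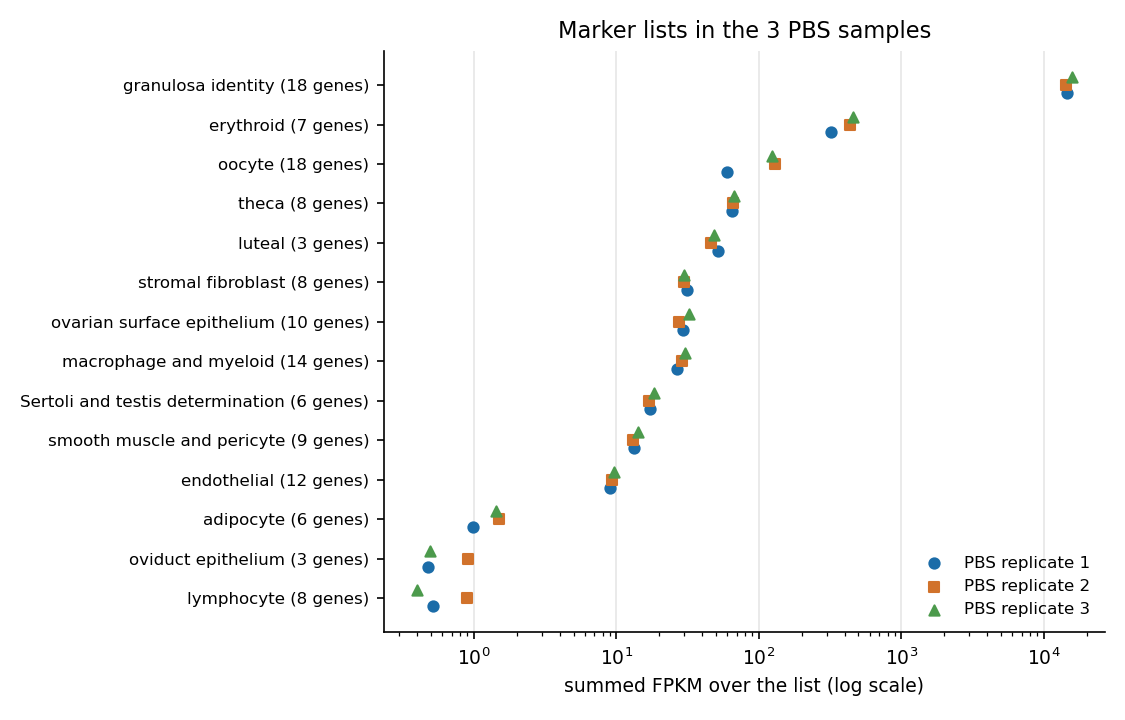
Summed FPKM (horizontal, log scale) of 14 marker lists in the 3 PBS samples, with the number of genes of each list in brackets and 1 symbol per sample. The granulosa identity list lies at 14405 to 15768 FPKM, the oocyte and erythroid lists are lowest in replicate 1, and the lymphocyte, oviduct and adipocyte lists stay below 2 FPKM.

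Theca markers were dominated by *Cyp17a1*, which makes androgens, at 30.8, 32.9 and 34.4 FPKM, and *Cyp19a1* was 1.85 ± 0.0814 times *Cyp17a1*. *Star* and *Aldh1a1* (8.13 ± 0.581 FPKM) followed. The theca hormone gene *Insl3* and the hedgehog targets *Gli1* and *Hhip* were at 0.339, 0.246 and 0.0856 FPKM. Of the 8 theca markers, 4 reached 1 FPKM, namely *Cyp17a1*, *Star*, *Aldh1a1* and *Ptch1*. *Ptch1* is also a hedgehog target, so the hedgehog targets of the list were not all low alike. *Star* is also a gene of steroid synthesis in GCs, and the origin of the *Cyp17a1* reads was not tested.

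Stromal markers were low but detectable, with *Col1a1* at 8.92 ± 0.703, *Col3a1* at 7.995 ± 0.347 and *Pdgfra* at 0.508 ± 0.0748 FPKM. *Acta2* was at 8.06 ± 0.482 FPKM, whereas the smooth muscle genes *Myh11* and *Cnn1* were at 0.306 and 0.2004 FPKM. Of the 9 smooth muscle and pericyte markers, 3 reached 1 FPKM, namely *Acta2*, *Pdgfrb* and *Mcam*. Of 12 endothelial markers, 3 reached 1 FPKM. The highest, *Cdh5*, was at 4.10 ± 0.420 FPKM, while *Pecam1*, *Kdr*, *Flt1* and *Tek* lay between 0.0475 and 0.401 FPKM. *Lyz2* was at 13.7 ± 0.586 FPKM among 14 myeloid markers, and the leukocyte gene *Ptprc* and the macrophage gene *Adgre1* were at 0.0839 ± 0.0138 and 0.230 ± 0.00537 FPKM. Of the 7 myeloid markers at or above 1 FPKM, 5 had a range over 1.5-fold, and their median CV was 23.6%. Only *Lyz2* of the 7 was at or above 5 FPKM. Such a range was found in 8.36% of all genes at or above 1 FPKM. That share depends on level, at 30.4% between 1 and 2 FPKM and 11.99% between 2 and 5 FPKM. The complement genes *C1qa* and *C1qb* were at 2.00, 1.84 and 3.68 FPKM and at 1.39, 2.51 and 1.70 FPKM. Replicate 1 was the lowest sample for 5 of the 7, and for 3 of the 5 with the wide range. Over all genes at or above 1 FPKM, it was the lowest in 29.4%, and in 450 of the 1058 with such a range. The 8 lymphocyte markers summed to 0.515, 0.888 and 0.396 FPKM. *Krt8*, shared by surface epithelium and other epithelia, was at 19.1 ± 1.70 FPKM, and *Upk3b*, a mesothelial marker, was at 2.22 ± 0.255 FPKM. Of 3 luteal markers, *Parm1* (34.7 ± 2.41 FPKM) was the highest, and *Akr1c18* and *Ptgfr*, which act in luteolysis, were at 8.39 and 5.56 FPKM. The Sertoli cell list had its highest member in *Dhh*, a ligand also listed among GC signals above, and its other members were at or below 3.83 FPKM.

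Genes of the ovulatory response, which LH normally triggers through *Lhcgr*, ranged widely, with a median of 3.58 FPKM. The highest of the list were *Lhcgr* itself, *Adamts1* and *Star*, and several others were low. *Ptgs2*, the inducible cyclooxygenase, was at 2.41, 4.85 and 2.82 FPKM, *Has2*, which makes hyaluronan, at 0.622, 1.48 and 0.831 FPKM, and *Areg* at 0.647, 0.988 and 0.457 FPKM. *Tnfaip6* (4.46, 10.9 and 7.44 FPKM) and *Ptx3* (1.23, 10.8 and 5.36 FPKM), which build the cumulus matrix, differed widely between samples. These genes were lowest in replicate 1 or 3 and highest in replicate 2. *Adamts1*, a protease of the same response, was higher and even, at 77.2, 71.2 and 64.6 FPKM. Of the 18 genes, 12 reached 1 FPKM and 8 reached 5 FPKM, against 12661 and 7987 of all 54532 genes. Of the 8, 2 had a range over 1.5-fold, against 2.19% of all genes at or above 5 FPKM. Of the 12, 6 had such a range (*Ptx3*, *Sult1e1*, *Tnfaip6*, *Ptgs2*, *Btc* and *Ereg*), against 8.36% of all genes at or above 1 FPKM. The 6 other than *Ptx3* and *Tnfaip6* lay below 5 FPKM, where the share was 30.4% (1 to 2 FPKM) or 11.99% (2 to 5 FPKM). All 6 were lowest in replicate 1, as were 450 of the 1058 genes with such a range. Replicate 1 also had the lowest oocyte and haemoglobin levels, and the part of differing cell mixtures in this was not tested. *Gja4*, the gap junction gene of the oocyte, moved alike, at 1.37, 3.92 and 2.71 FPKM.

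Replicates were close for most genes. The median CV of genes at or above 1 FPKM was 6.64%, with quartiles of 4.005% and 10.9%, and 69.4% of these genes had a highest sample no more than 1.2-fold above the lowest. A range over 1.5-fold was found in 1058 of 12661 genes. The share fell from 30.4% of genes between 1 and 2 FPKM to 1.52% of genes between 10 and 30 FPKM and 1.31% between 30 and 100 FPKM, and it was 2.27% of the 440 genes between 100 and 1000 FPKM. The median CV was likewise higher at the top, at 5.83% between 100 and 1000 FPKM and 7.18% in the 14 genes above that. The counting CV of a gene is the root of its expected counting variance over its mean. Its median was 11.6% in the lowest of these classes, where the median of the observed CVs was 14.0%. Between 30 and 100 FPKM the 2 medians were 2.08% and 4.81%. The observed median lay above the counting median in all 7 abundance classes, and 3514 genes (27.8%) had a CV below their own counting CV. What counting error alone would give in 3 samples, as a median CV or as a share below the counting CV, was not computed. Counting intervals treat reads as independent and cover counting error only.

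**Figure D5:**
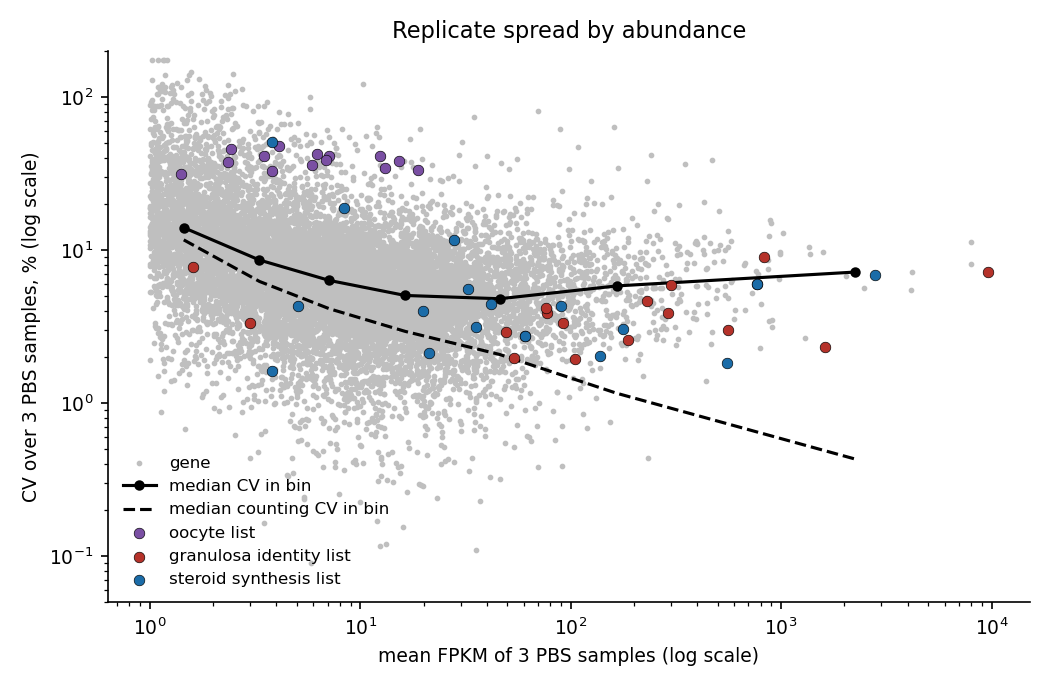
CV over the 3 PBS samples in percent (vertical, log scale) against mean FPKM (horizontal, log scale) for genes at or above 1 FPKM (grey). The solid line is the median CV per abundance class, and the dashed line is the median counting CV. The oocyte genes lie above 30%, well over the solid line, and the granulosa identity genes lie below 10%.

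The granulosa identity list had a median CV of 3.58%, and 0 of its 18 members had a range over 1.5-fold. Of the 18, 16 were at or above 5 FPKM, where 2.19% of all genes had such a range, so a count of 0 is near the share of genes of like abundance. *Inhba* was the least steady of them, with a CV of 8.99%, and it was highest in replicate 1 and lowest in replicate 3. The 10 widest ranges among genes with a mean of at least 5 FPKM belonged to *Mir6955*, *Rpl30-ps10*, *Ube2n-ps1*, *Ptx3*, *Gapdh*, *Gm12191*, *Gm17720*, *Gm10705*, *Gm25772* and *H3f3c*, of which 5 are processed pseudogenes. *Mir6955*, *Gm17720* and *Gm25772* rested on at most 16 reads in any sample. *Rpl30-ps10* was at 82.5, 8.33 and 120 FPKM from 510, 53 and 673 reads.

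*Gapdh*, a common reference gene, was at 30.3, 62.6 and 11.8 FPKM from 2230, 4741 and 787 reads, a range of 5.32-fold. It has many near-identical copies in the mouse genome, so its level here is uncertain. The part of these copies in the range of *Gapdh* was not tested. *Rpl17* was at 97.1, 278 and 107 FPKM and its copy *Rpl17-ps10* at 543, 262 and 600 FPKM, both named after their values were seen. The sum of the pair was 640, 540 and 707 FPKM, a narrower range than that of either gene. The other 9 reference genes had no range over 1.5-fold, among them *Actb* (557 ± 27.2 FPKM), *Tubb5* (396 ± 23.2 FPKM), *Hprt* (76.6 ± 4.56 FPKM) and *Tbp* (2.38 ± 0.0692 FPKM). All of them but *Tbp* were at or above 5 FPKM, where 2.19% of all genes had such a range. Its absence in these genes is thus near the share of genes of like abundance.

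Replicate 3 differed from the other 2 along gene length. In protein-coding genes with a mean of at least 5 FPKM, the median log2 ratio of replicate 3 to the mean of replicates 1 and 2 was 0.26 for 40 genes under 600 bases and 0.14 for 920 genes of 1000 to 2000 bases. It was -0.06 for 2795 genes of 5000 bases or more. Replicate 2 over replicate 1 moved less, from 0.02 in the shortest class to -0.05 in the longest. The ribosomal protein genes held 7.45%, 7.69% and 8.56% of the FPKM in replicates 1, 2 and 3, and the long receptor genes *Igf1r* (11.7, 11.002 and 9.29 FPKM) and *Insr* (9.55, 8.94 and 7.81 FPKM) were lowest in replicate 3. The part of gene length in these levels was not tested further.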

How the data were processed

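RNA-seq was measured in GCs of mice given PBS (3 samples), with no comparison between groups. Per the submitters' processing notes, tools were CASAVA 1.8, fastp, HISAT2 2.0.5, featureCounts 1.5.0-p3 and DESeq2 1.20.0, with the build mm10. Libraries were made with a NEBNext Ultra kit, and strandedness is not given in the sources used here. The authors deposited FPKM per gene and sample. The deposited table also holds the authors' own comparison, which was not used: a mean signal of each group, a log2 fold change, a p-value and an adjusted p-value. 0 per-sample columns were left unmapped.

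FPKM multiplied by gene length gave whole multiples of 1 read for 100% of values above 0 (tolerance 0.01 read), from which reads were rebuilt. Depth was 16005869 to 17790353 reads. Python 3.11.15, pandas 2.3.3, NumPy 2.4.6 and matplotlib 3.10.9 served for the summaries and plots. Spread was set beside counting error. The calculation was tested on simulated data for its mean squared spread beyond counting error, and not for medians over genes. Named genes were the 20 protein-coding and 5 other genes with the highest means, the 20 highest transcription factors, the 10 widest ranges at 5 FPKM or more, and the 417 members of 31 lists. The lists were chosen with earlier results of these data known. Others are marked as named after their values were seen. Alternatives covered thresholds, TPM scaling, rebuilt reads, short or mitochondrial genes, a pseudocount, leading list members and each replicate left out. Nothing in the labels says that a sample shares animals or a batch with another. Some members of the lists are not reported here by name.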

Additional observations from a re-analysis of the deposited data

How the results depend on the processing

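Without any one replicate, the counts of genes (12620 to 12735) and of transcription factors (767 to 773) at or above 1 FPKM, the shares of the 100 most abundant (29.8% to 30.3%) and of protein-coding genes (89.4% to 89.7%), and the sums of the granulosa (14487 to 15169 FPKM) and other cell type lists (715 to 819 FPKM) stayed within 1 SD or 1.5 times. The median CV was 4.70% to 6.18% and genes with a range over 1.5-fold numbered 590 to 653, since 2 samples span less than 3. At 5 FPKM the counts fell to 7987 genes and 380 transcription factors. In rebuilt reads, the 100 leading genes held 18.8% and protein-coding genes 97.7%. Without mitochondrial genes the 100 leading genes held 25.6%, and without genes under 200 bases protein-coding genes held 92.8%. In TPM the granulosa list summed to 46921 and the other lists to 2370, by construction. Without the leading gene the granulosa list summed to 5308 FPKM, and without each leading gene the other lists summed to 343 FPKM. The median CV was 9.92% from 0.1 FPKM and 5.43% from 5 FPKM. Genes over the range numbered 480 at 2-fold, 5859 from 0.1 FPKM and 175 from 5 FPKM. The oocyte list summed to 127 FPKM without replicate 1, 92.1 without replicate 2 and 94.6 without replicate 3. No paired analysis was possible because 1 group was described and no test was run. With 3 pooled samples, the SD of a level is itself imprecise.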
